A study of Danio rerio with 6 samples.

Results

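Genes of fatty acid and triglyceride metabolism were followed in the retina of adult zebrafish with and without the Polycomb-associated photoreceptor protein Samd7. Members were chosen by the start of the gene name (elovl, fads, acsl, dgat, agpat, lpcat, cpt1, cpt2, plin, scd, acac, lpin, gpat, fabp, bbox1, hadh, acad or lpl), which gave 68 of the 14781 genes in the table. Of these, 64 are lipid genes and 4 are gpatch genes, G-patch proteins that match by name alone and were counted apart. The names fasn and gpam were also part of the rule, but no gene in the table carried them, so these genes were not analysed here. The 2 groups were 3 wild-type fish and 3 fish homozygous for the samd7 allele stl888, all males of 3 months from a cross of heterozygotes. Both retinas of 1 fish made 1 library, so replicates were separate animals. Values are normalised read counts (a gene's reads over the size factor of the library), and means are given ± SD with n = 3 for each genotype. A positive log2 change means a higher level in the mutants, and was computed from log2(value + 1). Adjusted p refers to limma, with the Benjamini-Hochberg method applied across the 11335 genes that reached 10 in 3 or more libraries. A gene was called at an adjusted p under 0.05.

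Fatty acids are built by carboxylation and chain elongation, given double bonds by desaturases, and activated to acyl-CoA by the acsl enzymes before use. Acyltransferases join them to glycerol, the dgat enzymes close the path to triglyceride, and perilipins coat the droplets that store it, while binding proteins of the fabp family carry free fatty acids in the cytosol. For oxidation, acyl groups enter mitochondria bound to carnitine through the cpt enzymes and are shortened by acyl-CoA dehydrogenases and the trifunctional protein. Photoreceptor outer segments are known for their high content of docosahexaenoic acid (DHA) and of very long chain polyunsaturated fatty acids, and the retina is known to oxidise fatty acids as well as glucose.

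The libraries held between 20186266 and 29117026 reads in genes. The samd7 transcript was at 4196, 4557 and 5186 in wild type and 2471, 5121 and 3642 in the mutants, which overlapped, so it did not check the labels. Markers of the retina were present in each library, with rods (rho), cones (gnat2) and Müller glia (glula) among them. The summed pigment epithelium markers (9 of 12 listed genes, none at 0 in all libraries) differed widely within each genotype, from 8577 to 28303 in wild type and from 4808 to 32487 in the mutants, and genes that moved with them are described below. In bulk tissue, fewer cells of a type and less RNA per cell cannot be told apart.

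Of the 61 members tested, 4 fell in the mutants and 2 rose. Those that fell were bbox1, the last enzyme of carnitine synthesis, the elongase elovl6, the triglyceride enzyme dgat2 and the lysophospholipid acyltransferase lpcat4. Those that rose were the fatty acid binding proteins fabp11a and fabp3. Among all 11335 genes tested the share called was 2.61%, with 1.78% lower and 0.829% higher, and among the members it was 9.84%. With edgeR on recovered reads 3 members fell and 2 rose, against 2.25% of all genes called (1.44% lower and 0.812% higher). With DESeq2 4 fell and 5 rose, against 10.8% of all genes (6.63% lower and 4.14% higher). With library totals as the scaling, which moved the median log2 change of all genes to 0.36, 4 fell and 13 rose, against 18.7% of all genes (1.24% lower and 17.5% higher). Of the genes that fell, dgat2 reached the filter through wild type alone and so had to differ to be tested, and these counts are given as a description. With a filter of 50 in 3 libraries 3 of 56 members fell and 2 rose, against 3.1% of all genes called. At an unadjusted p under 0.05 there were 13 of 61 members, near the 21.0% of all genes. The median log2 change of the members was 0.10, against 0.013 over all genes. The genotypes did not overlap in 18 members, or 29.5%, which was near the 28.1% of all genes without overlap. Of these, 6 were lower in every mutant, or 9.84%, against 14.8% of all genes, and 12 were higher in every mutant, or 19.7%, against 13.3%. The 7 members that missed the filter were acsl5, elovl6l, elovl7b, fabp10a, fabp1b.1, fabp6 and gpat2. No read of elovl7b, fabp1b.1 or fabp6 was counted in any library, which allows up to 3 reads in each.

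**Figure D1:**
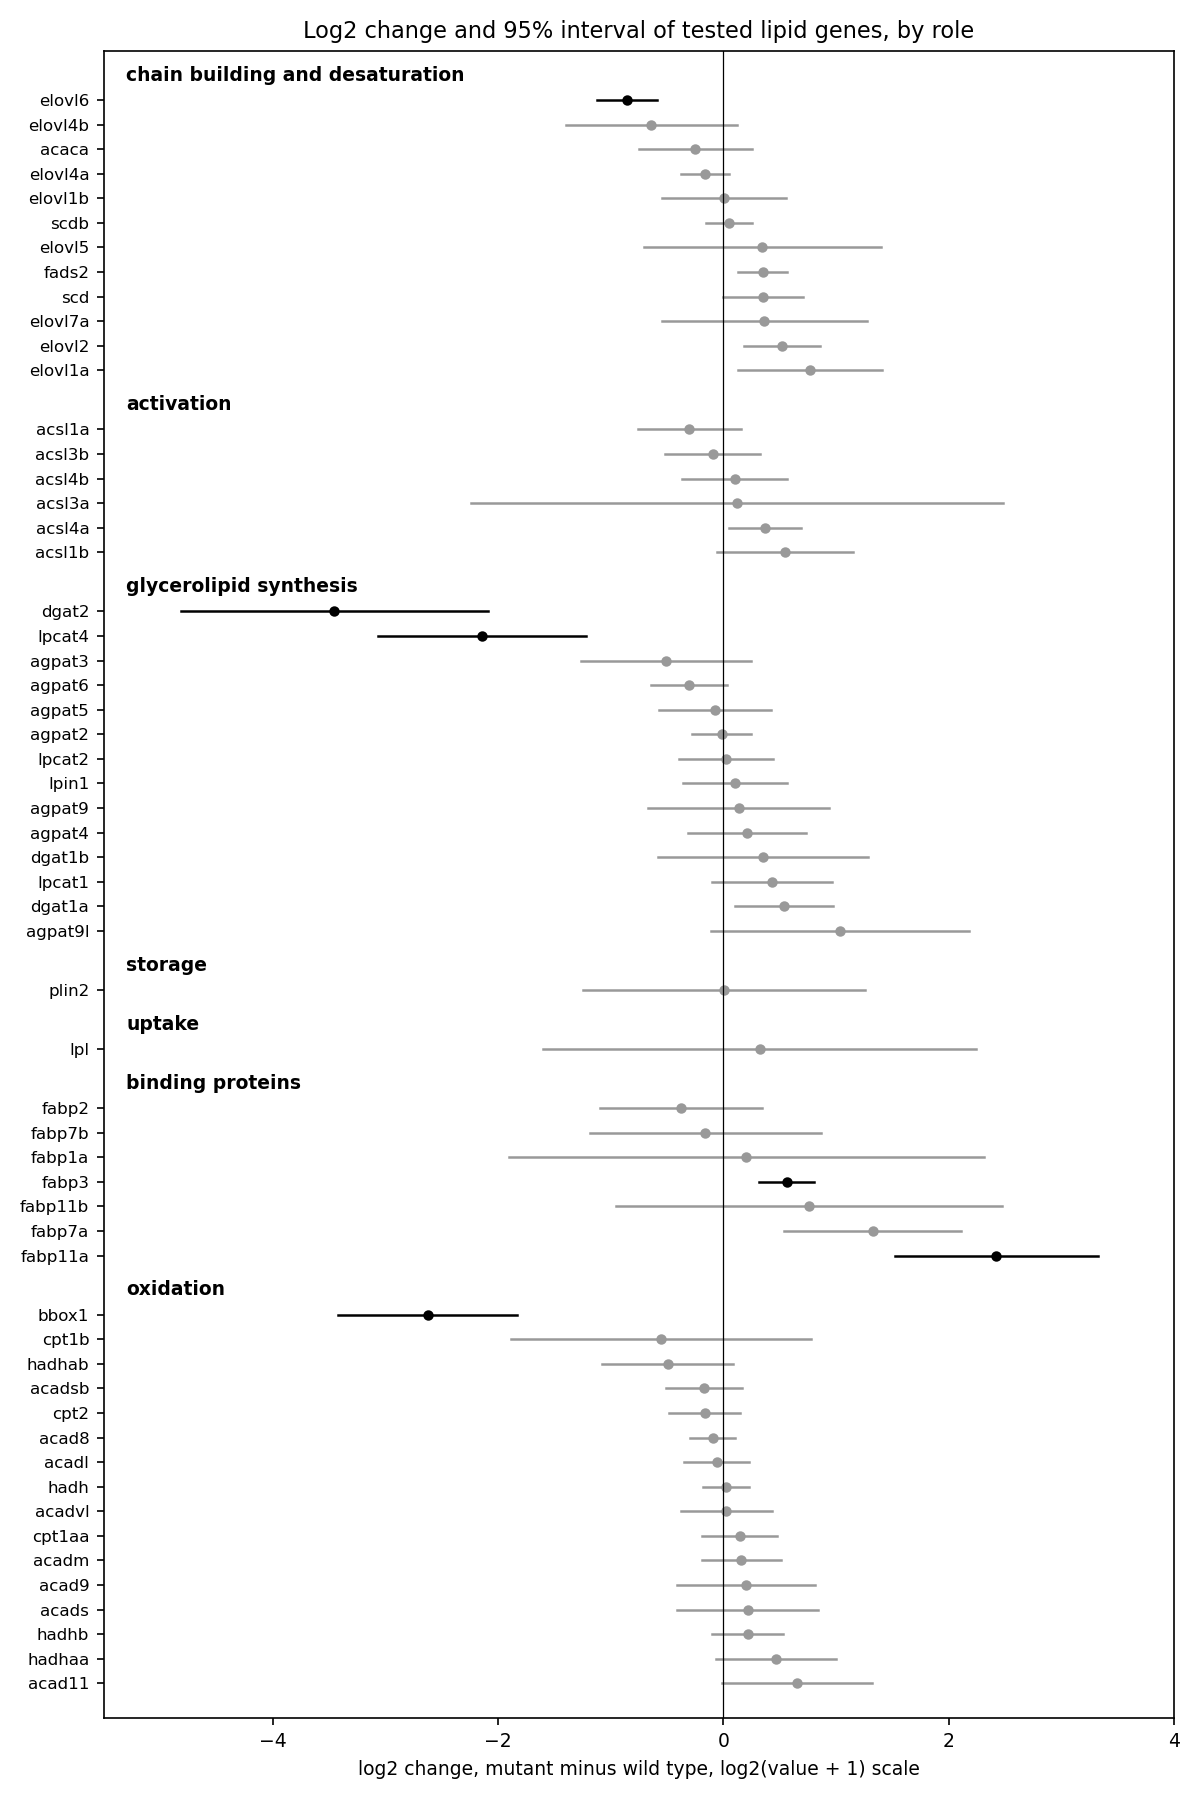
Log2 change of the mutants against wild type (x axis, log2(value + 1) scale) with its 95% interval from limma for each tested lipid gene, grouped by role. Black marks the 6 genes past an adjusted p of 0.05 and grey the others. The called genes lie between -3.45 for dgat2 and 2.43 for fabp11a, and most of the oxidation genes lie close to 0.

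Among the enzymes that build and desaturate chains, elovl6 fell to 0.549 of wild type and the other 11 tested members did not pass the test. The elongase elovl6 extends saturated and monounsaturated chains made by synthesis from acetyl-CoA. It was at 5494, 5493 and 4406 in wild type and at 2863, 2803 and 2787 in the mutants. The genotypes were far apart, and the mutants differed by little among themselves. The means were 5131 ± 628 and 2818 ± 40.2, a log2 change of -0.86 (SE 0.11, adjusted p = 0.0239). Leaving out mutant replicate 1 (adjusted p = 0.120), mutant replicate 3 (0.147) or wild-type replicate 2 (0.0988) ended the call. It held with edgeR's quasi-likelihood test on recovered reads (0.0281), with DESeq2 (6.02e-08) and with library totals as the scaling (0.0423). Over all alternatives adjusted p lay between 6.02e-08 and 0.147. With each library left out in turn, the log2 change of elovl6 lay between -0.96 and -0.80. Over all genes these fits called 11 to 236 lower and 4 to 130 higher, against 202 and 94 with all libraries.

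Of the enzymes that make DHA from shorter polyunsaturated precursors, fads2 and elovl2 were higher in every mutant without passing the test, and elovl5 overlapped between genotypes. The desaturase fads2 was at 2891, 2727 and 2855 in wild type and at 3605, 3867 and 3340 in the mutants, a log2 change of 0.35 (SE 0.092, 95% interval 0.13 to 0.57, adjusted p = 0.0973). The elongase elovl2, which extends polyunsaturated chains towards DHA, was at 193, 204 and 239 in wild type and at 288, 327 and 297 in the mutants, a log2 change of 0.52 (SE 0.14, 95% interval 0.18 to 0.86, adjusted p = 0.105). Both genes had no overlap between genotypes, and the differences were 1.28-fold and 1.43-fold. Among all genes tested 13.3% were higher in every mutant. Both genes were named for their small p, from which the lack of overlap largely follows. DESeq2 called both (adjusted p = 0.0197 for fads2 and 0.0286 for elovl2), as did limma with library totals as the scaling (0.0219 and 0.0225). Over all alternatives adjusted p lay between 0.0197 and 0.278 for fads2 and between 0.0225 and 0.294 for elovl2. The elongase elovl5, which acts on shorter polyunsaturated chains, was at 499, 1667 and 1073 in wild type and 1135, 1579 and 1025 in the mutants.

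The elovl4 enzymes make the very long chain fatty acids of photoreceptors, and human ELOVL4 is mutated in a dominant macular dystrophy. Their copy elovl4b was at 48129, 74330 and 82284 in wild type and at 28838, 60343 and 44689 in the mutants, a log2 change of -0.64 (SE 0.32, 95% interval -1.40 to 0.12, adjusted p = 0.311). The genotypes overlapped, and the 6 libraries stood in the same order for elovl4b as for the rod opsin rho. Values of rho were 1420939, 1983177 and 2349076 in wild type and 410623, 1490410 and 1229503 in the mutants. Among all genes tested 0.45% had this order, and among the members elovl4b and gpatch3 had it, a comparison chosen after the values were seen. The part of rod content in the level of elovl4b was not tested. The other copy, elovl4a, was at 3019, 3011 and 3370 in wild type and 2767, 2731 and 2895 in the mutants, a log2 change of -0.16 (95% interval -0.37 to 0.050, adjusted p = 0.355). Reads of such similar copies can be divided between them in counting, so single copies are less certain than other genes.

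None of the remaining chain enzymes passed the test. The stearoyl-CoA desaturase scdb, which puts the first double bond into saturated chains, was at 3704 ± 54.3 in wild type against 3839 ± 209 in the mutants, a log2 change of 0.050 (95% interval -0.15 to 0.25, adjusted p = 0.785). Its relative scd was at 332 ± 54.6 and 422 ± 27.3 (log2 change 0.36, adjusted p = 0.238). The carboxylase acaca, which commits acetyl-CoA to synthesis, was at 1624 ± 321 and 1373 ± 314 (log2 change -0.25, 95% interval -0.75 to 0.25, adjusted p = 0.549). Of these 3 genes scd alone did not overlap between genotypes. The elongase elovl1a, which extends saturated and monounsaturated chains to very long ones, was at 49.9, 40.5 and 71.2 in wild type and 101, 81.6 and 88.9 in the mutants, without overlap (log2 change 0.77, adjusted p = 0.176). With library totals as the scaling scdb (log2 change 0.40, adjusted p = 0.0349), scd (0.71, 0.0354) and elovl1a (1.11, 0.0413) were called, and over all alternatives adjusted p lay between 0.0349 and 0.928 for scdb, between 0.0354 and 0.493 for scd and between 0.0413 and 0.414 for elovl1a. The median log2 change of the 12 tested chain enzymes was 0.20.

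None of the 6 tested acsl genes, which activate fatty acids to acyl-CoA, passed the test. With limma 1 of them was under an unadjusted p of 0.05, and edgeR and DESeq2 also called 0. That gene was acsl4a, an enzyme with a preference for arachidonic acid in mammals, at 772, 806 and 933 in wild type and 1224, 1102 and 931 in the mutants, a log2 change of 0.37 (SE 0.13, adjusted p = 0.185). Here the lowest mutant and the highest wild-type fish were nearly level. With library totals as the scaling acsl4a was called, with adjusted p between 0.0302 and 0.439 over all alternatives. The genes acsl1a (365 ± 47.6 and 299 ± 62.6, log2 change -0.30), acsl1b (86.1 ± 23.0 and 124 ± 16.1, log2 change 0.55) and acsl3b (721 ± 126 and 676 ± 124, log2 change -0.095) had adjusted p between 0.275 and 0.800. The signs of acsl1a and acsl3b were positive with library totals as the scaling.

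In glycerolipid synthesis dgat2 and lpcat4 fell and none of the 14 tested genes rose, against 1.78% of all genes lower and 0.829% higher. The median log2 change of the 14 genes was 0.062. The acyltransferase dgat2, which adds the last fatty acid of a triglyceride, fell 15.2-fold. It was at 90.1, 97.3 and 25.3 in wild type and at 5.60, 4.18 and 4.23 in the mutants. Each wild-type fish lay well above each mutant, although wild-type replicate 3 stood apart from the other two. The means were 70.9 ± 39.7 and 4.67 ± 0.804, a log2 change of -3.45 (SE 0.57, adjusted p = 0.0399). The mutant values rest on 6, 4 and 5 reads, and the gene met the filter through wild type alone, so that it had to differ to be tested. The call ended on leaving out any one mutant, with adjusted p of 0.155 for replicate 1, 0.0750 for replicate 2 and 0.178 for replicate 3, and without any one wild-type library the gene missed the filter. With edgeR adjusted p was 0.0399 and with DESeq2 8.26e-07, and the alternatives with a value lay between 8.26e-07 and 0.178.

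The second acyltransferase of triglyceride synthesis is encoded by dgat1a and dgat1b. The gene dgat1a was at 178, 212 and 229 in wild type and at 272, 267 and 367 in the mutants, 1.47-fold higher without overlap, a log2 change of 0.54 (SE 0.18, adjusted p = 0.165). Its copy dgat1b overlapped, at 82.4 ± 23.5 and 112 ± 58.4 (log2 change 0.35, adjusted p = 0.659). Neither passed the test, and a difference in response between dgat1a and dgat2 was not tested. Over all alternatives adjusted p of dgat1a lay between 0.0297 and 0.416, and it was called with library totals as the scaling alone.

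The lysophospholipid acyltransferase lpcat4, which reattaches fatty acids to lysophospholipids, fell 4.33-fold. It was at 220, 168 and 118 in wild type and at 30.8, 60.7 and 25.4 in the mutants. All wild-type fish lay above all mutants. The means were 169 ± 50.7 and 39.0 ± 19.0, a log2 change of -2.14 (SE 0.39, adjusted p = 0.0442). The call was lost with edgeR (adjusted p = 0.0508) and on leaving out mutant replicate 1 (0.174), mutant replicate 3 (0.184), wild-type replicate 1 (0.0653), wild-type replicate 2 (0.143) or wild-type replicate 3 (0.0848). It held with DESeq2 (2.49e-05), and over all alternatives adjusted p lay between 2.49e-05 and 0.184. The related genes lpcat1 (48.2 ± 6.59 and 65.2 ± 2.32, log2 change 0.44, adjusted p = 0.326) and lpcat2 (217 ± 38.2 and 219 ± 17.8, log2 change 0.021, adjusted p = 0.961) did not pass the test.

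Among the agpat genes, which acylate glycerol phosphate and lysophosphatidic acid, none of 7 passed. The gene agpat3, whose mouse counterpart is needed for DHA-containing phospholipids in photoreceptors, was at 10344, 15750 and 22204 in wild type and at 8024, 13147 and 11973 in the mutants, a log2 change of -0.51 (SE 0.31, 95% interval -1.26 to 0.25, adjusted p = 0.410). The genotypes overlapped, and as for rho the lowest library was mutant replicate 1 and the highest wild-type replicate 3. The full order was not that of rho, since mutant replicate 3 lay above wild-type replicate 1 for agpat3 and below it for rho. This comparison was also chosen after the values were seen. The gene agpat6, now named gpat4, for a glycerol phosphate acyltransferase, was at 2812 ± 415 and 2272 ± 256 (log2 change -0.30, adjusted p = 0.285), and its sign was positive with library totals as the scaling. For agpat5 the values were 1221 ± 261 and 1158 ± 238 (log2 change -0.077, adjusted p = 0.868), also with a positive sign under library totals. The gene agpat9l met the filter through the mutants alone, with 6.55 ± 2.87 in wild type against 13.7 ± 0.663 in the mutants, a log2 change of 1.04 (adjusted p = 0.278). The phosphatidate phosphatase lpin1, which makes diacylglycerol, was at 280 ± 13.6 and 307 ± 70.7 (log2 change 0.10, adjusted p = 0.807).

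**Figure D2:**
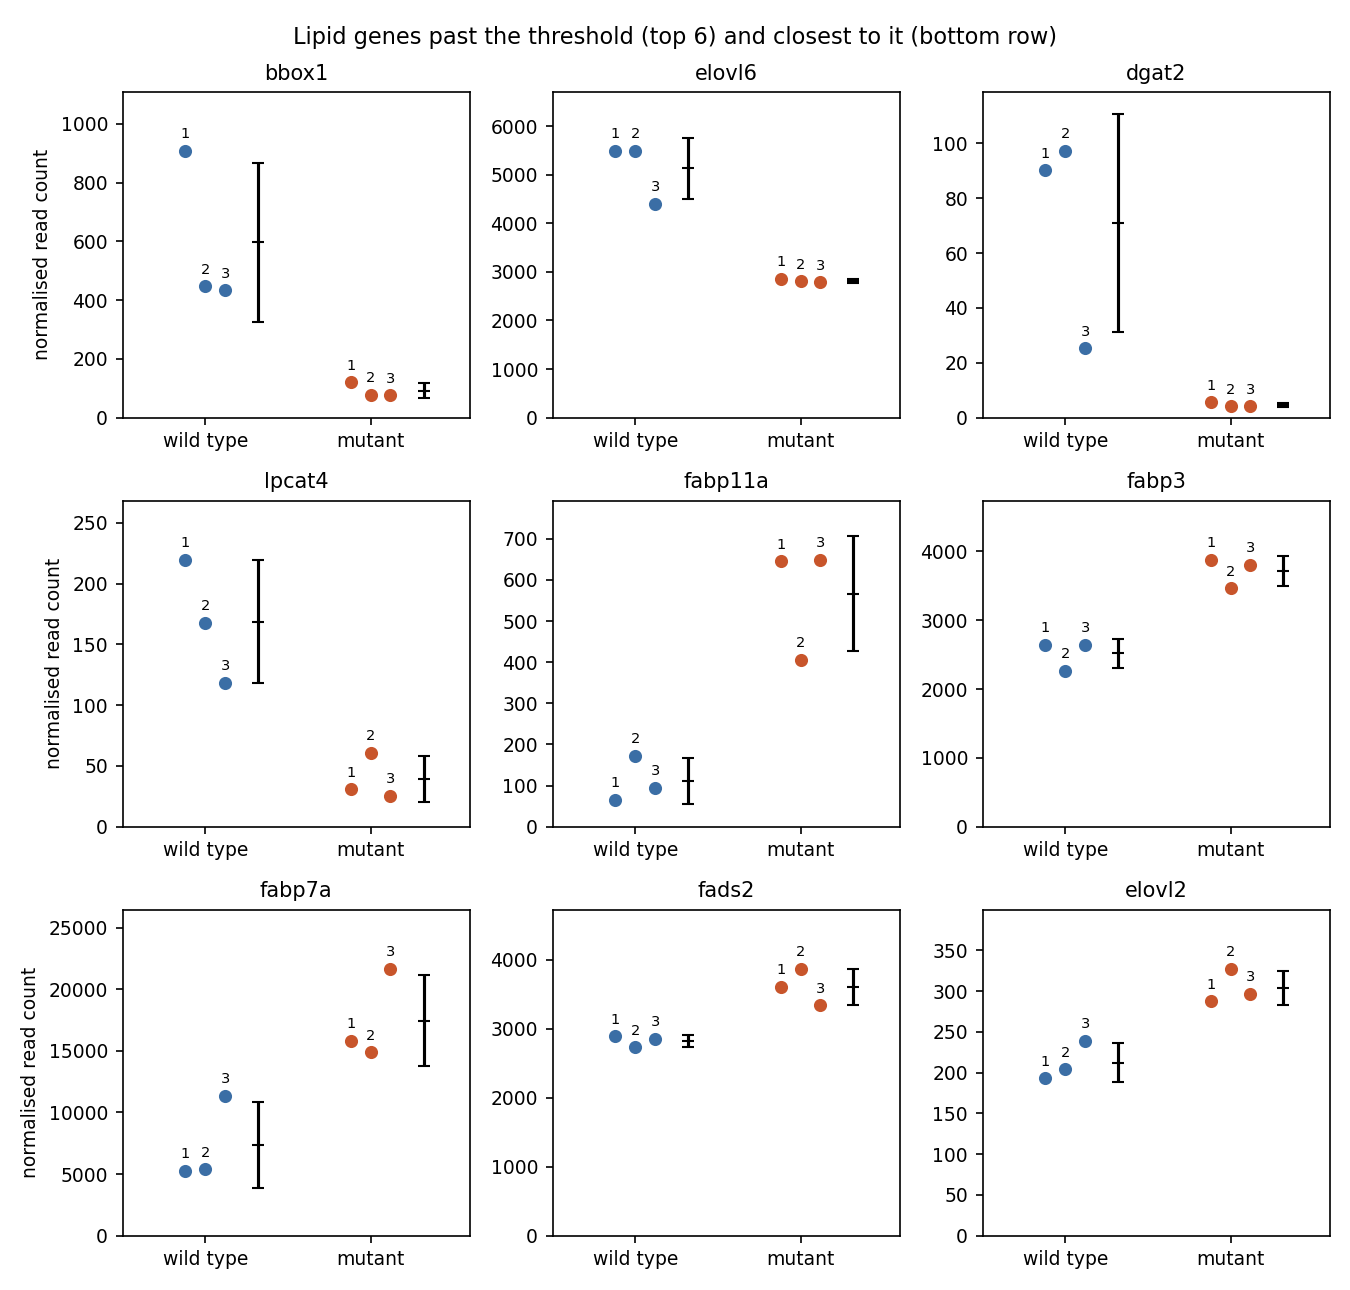
Normalised read count (y axis, from 0) of 9 lipid genes in each wild-type (blue) and mutant (orange) library, with replicate numbers above the points and the mean ± SD in black. The 9 genes are those with the smallest unadjusted limma p among the lipid genes. In each of them the 3 wild-type and 3 mutant fish do not overlap, which follows largely from this choice. For bbox1 the values are 433 or more in wild type against 120 or less in the mutants. For elovl2 they are 239 or less against 288 or more. Of all genes tested, 28.1% had no overlap between genotypes.

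Storage and uptake were each represented by a single gene, and neither passed the test. The droplet coat protein plin2 was at 77.0, 176 and 98.8 in wild type and 119, 55.5 and 203 in the mutants, a log2 change of 0.0034 (95% interval -1.25 to 1.26, adjusted p = 0.999). The lipoprotein lipase lpl, which frees fatty acids from circulating triglyceride, was at 42.9, 246 and 130 in wild type and 168, 57.5 and 278 in the mutants, a log2 change of 0.32 (95% interval -1.60 to 2.24, adjusted p = 0.855). In both genes wild-type replicate 1 and mutant replicate 2 were the lowest libraries, and the intervals were wide. Their signs were negative without wild-type replicate 1 (plin2 -0.25, lpl -0.36).

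The same 2 libraries were lowest in a group of 5 members that differed at least 3 times between their extremes, namely acsl3a, fabp11b, fabp1a, lpl and plin2. The pattern was noticed in the values and was given no test. It was found in 1.66% of all genes tested. Without the condition on size, these libraries were the lowest in 11 of the 61 members and in 6.52% of all genes. The liver-type binding protein fabp1a was at 246, 1430 and 1408 in wild type and at 1186, 355 and 1804 in the mutants, a log2 change of 0.20 (SE 0.87, adjusted p = 0.921). The activating enzyme acsl3a was at 12.3, 102 and 62.0 in wild type and at 71.9, 14.6 and 95.6 in the mutants, a log2 change of 0.12 (SE 0.98, adjusted p = 0.961). Both genotypes thus held fish with low and fish with high levels. The pigment epithelium markers, whose cells line the photoreceptors and take up shed outer segments, had the same 2 libraries lowest: their sum was 8577, 28303 and 23360 in wild type and 18320, 4808 and 32487 in the mutants. The visual cycle isomerase rpe65a, a defining marker, was at 1867, 5968 and 3036 in wild type and 3423, 772 and 4689 in the mutants. The part of pigment epithelium RNA in these levels was not tested.

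**Figure D3:**
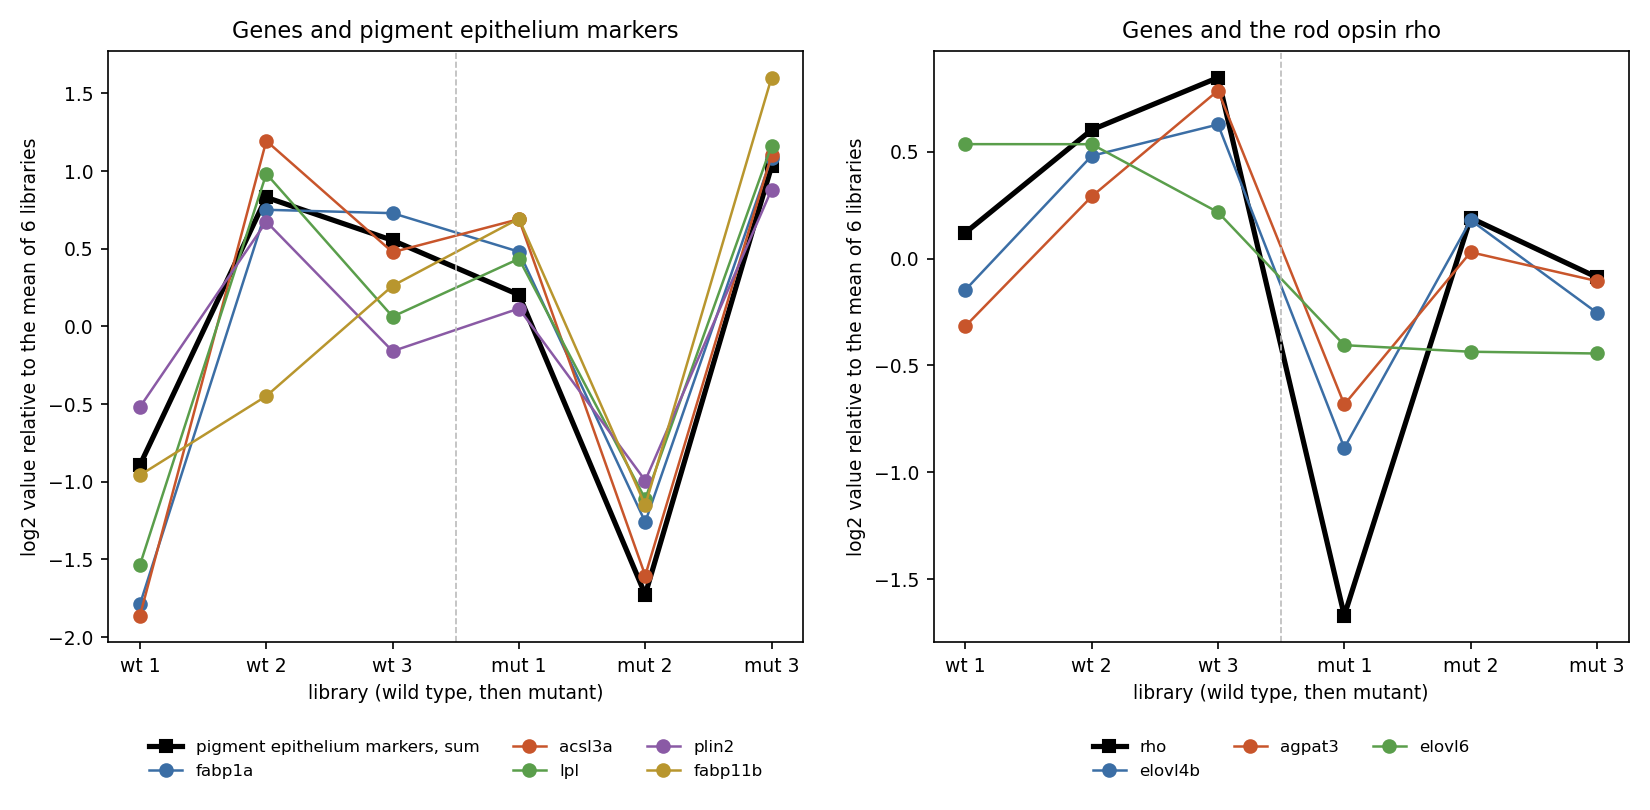
Log2 value relative to the mean of the 6 libraries (y axis) in each wild-type (wt) and mutant (mut) library, with lines only to join the points of a gene. On the left 5 lipid genes and the sum of pigment epithelium markers are lowest in wild-type replicate 1 and mutant replicate 2. On the right elovl4b follows the order of rho, and elovl6 separates the genotypes. There agpat3 overlaps between genotypes and differs from rho in the order of wild-type replicate 1 and mutant replicate 3.

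Among the fatty acid binding proteins 2 of 7 tested genes rose and none fell, against 0.829% and 1.78% of all genes. The median log2 change of the 7 was 0.56. The gene fabp11a, now named fabp4a and related to the binding protein of mammalian adipocytes and macrophages, rose 5.11-fold. It was at 65.6, 173 and 94.2 in wild type and at 645, 406 and 649 in the mutants. The lowest mutant lay above the highest wild-type fish. The means were 111 ± 55.4 and 567 ± 139, a log2 change of 2.43 (SE 0.38, adjusted p = 0.0381). Leaving out mutant replicate 1 (adjusted p = 0.158), mutant replicate 3 (0.178), wild-type replicate 2 (0.0524) or wild-type replicate 3 (0.0912) ended the call. It held with edgeR (0.0417) and DESeq2 (1.14e-07), and over all alternatives adjusted p lay between 1.14e-07 and 0.178.

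Marker sums of several cell types are given next to fabp11a, and in each sum the most abundant genes weigh most. The summed microglia and macrophage markers (8 of 12 listed genes) were between 871 and 2088 in wild type and between 1197 and 1560 in the mutants. Endothelial markers (9 of 12) summed to 666 to 781 and 628 to 697, and adipocyte markers (6 of 8) to 91.9 to 98.9 and 94.8 to 133. Lens markers (11 of 12, with 1 at 0 in all libraries) summed to 104 to 346 and 214 to 544. Markers of proliferating cells summed to between 14806 and 21249 in wild type and between 24122 and 34085 in the mutants. Of these markers 7 of the 12 rose, against 0.829% of all genes. Among the others pcna overlapped between genotypes, at 3124, 2770 and 2178 in wild type and 3920, 2485 and 2952 in the mutants (limma adjusted p = 0.618). Müller glia markers (12 of 13, fabp7a and rlbp1b among them) summed to 315506 to 317353 in wild type and 340094 to 370804 in the mutants. Limma and edgeR called none of these markers, and DESeq2 called 3 higher, against 4.14% of all genes. The median log2 change of the markers was 0.13, and 3 of the 12 were under an unadjusted limma p of 0.05, against 21.0% of all genes. The most abundant of them, glula, overlapped between genotypes. The part of cell content in the level of fabp11a was not tested. Its copy fabp11b was at 81.4, 116 and 190 in wild type and at 256, 71.1 and 480 in the mutants, a log2 change of 0.76 (SE 0.71, adjusted p = 0.593), and the difference between the copies was not tested.

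The heart-type binding protein gene fabp3 rose 1.48-fold. It was at 2646, 2269 and 2641 in wild type and at 3880, 3466 and 3809 in the mutants. The genotypes lay apart by more than their own spread. The means were 2519 ± 216 and 3718 ± 221, a log2 change of 0.56 (SE 0.10, adjusted p = 0.0442). Leaving out mutant replicate 1 (adjusted p = 0.184), mutant replicate 2 (0.0651), mutant replicate 3 (0.200), wild-type replicate 2 (0.139) or wild-type replicate 3 (0.0936) ended the call. It held with edgeR (0.0478) and DESeq2 (3.00e-04), and over all alternatives adjusted p lay between 3.00e-04 and 0.200.

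The brain-type binding protein fabp7a, a gene of radial and Müller glia whose mammalian protein binds DHA, stood 2.38-fold higher in the mutants and missed the threshold. It was at 5286, 5376 and 11377 in wild type and at 15819, 14900 and 21669 in the mutants. Every mutant lay above every wild-type fish, and wild-type replicate 3 was the highest of its group. The means were 7346 ± 3491 and 17463 ± 3672, a log2 change of 1.33 (SE 0.33, 95% interval 0.54 to 2.11, adjusted p = 0.0895). It was called without wild-type replicate 3 (adjusted p = 0.0351), with DESeq2 (0.00447) and with library totals (0.0285), but not with edgeR (0.106), and adjusted p lay between 0.00447 and 0.281 over all alternatives. Without fabp7a, the other 11 Müller glia markers in the table summed to between 305483 and 312067 in wild type and between 324275 and 349135 in the mutants. Among them rlbp1b was lowest in wild-type replicate 1 and mutant replicate 2, like the summed pigment epithelium markers. It was at 4653, 18724 and 15608 in wild type and 13333, 6214 and 28913 in the mutants, and the Müller glia sums include it. The summed proliferating cell markers given for fabp11a, of which 7 of 12 rose, were also higher in every mutant. The most abundant genes weigh most in this sum, and pcna among them overlapped between genotypes. The part of Müller glia and proliferating cells in the level of fabp7a was not tested. The genes fabp2 (59.9 ± 17.9 and 45.4 ± 8.56) and fabp7b (16.9 ± 6.69 and 14.6 ± 3.69) overlapped between genotypes.

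In oxidation bbox1 fell 6.48-fold, while none of the other 15 genes passed the test. The enzyme of bbox1 hydroxylates gamma-butyrobetaine to carnitine, the carrier of acyl groups into mitochondria. The gene was at 908, 447 and 433 in wild type and at 120, 78.5 and 77.0 in the mutants. The lowest wild-type fish held well over the highest mutant, and wild-type replicate 1 stood above the other two. The means were 596 ± 271 and 92.0 ± 24.7, a log2 change of -2.63 (SE 0.33, adjusted p = 0.0230). Leaving out mutant replicate 1 (adjusted p = 0.0727), mutant replicate 3 (0.131) or wild-type replicate 2 (0.0820) ended the call. It held with edgeR (0.0295) and DESeq2 (6.04e-11), and over all alternatives adjusted p lay between 6.04e-11 and 0.131. An earlier enzyme of carnitine synthesis, aldh9a1a.1, was at 1980 ± 325 and 2068 ± 57.4 (log2 change 0.075, adjusted p = 0.786), and the carnitine carrier slc25a20 was at 349 ± 20.0 and 427 ± 102 (log2 change 0.26, adjusted p = 0.494), both chosen after their values were seen.

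Photoreceptor markers are given here next to the 4 genes that fell. The cone arrestin arr3a of red and green cones was at 239837, 202706 and 123364 in wild type and at 1437, 654 and 384 in the mutants. Of the cone markers in the table (10 of 14) 4 fell and 1 rose, against 1.78% and 0.829% of all genes. Their median log2 change was -1.29. The sums of the cone markers, in which the most abundant genes weigh most, overlapped. They were 1350050 to 1455220 in wild type and 1242650 to 1454770 in the mutants. The rod markers (10 of 14) summed to between 1915320 and 3094990 in wild type and between 575338 and 2086080 in the mutants. Their sum was lowest in mutant replicate 1, their median log2 change was -1.03, and 1 of them fell. For elovl6 the mutants were nearly level, at 2863, 2803 and 2787. The order of the mutants rests on 6, 4 and 5 reads for dgat2 and on 33, 58 and 30 for lpcat4. This order was given no test in any of the 4 genes that fell. The part of photoreceptor content in these levels was not tested.

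None of the enzymes that shorten acyl-CoA chains passed the test, and the median log2 change of the 16 oxidation genes was 0.027. The dehydrogenase acadm of medium chains was at 2476 ± 315 in wild type against 2772 ± 411 in the mutants, a log2 change of 0.16 (95% interval -0.19 to 0.51, adjusted p = 0.588). The branched-chain dehydrogenase acadsb was at 1339 ± 173 and 1193 ± 160 (log2 change -0.17, 95% interval -0.50 to 0.17, adjusted p = 0.549), with a positive sign under library totals. The hydroxyacyl-CoA dehydrogenase hadh varied by 1.09-fold between its extremes over all 6 fish, with 986 ± 41.4 and 1003 ± 28.6 (log2 change 0.026, 95% interval -0.18 to 0.23, adjusted p = 0.892). Each of these intervals excludes a 2-fold change, which is 1 on the log2 scale. The dehydrogenase acad11 was at 34.1, 57.9 and 50.5 in wild type and 86.8, 70.1 and 66.0 in the mutants, without overlap, a log2 change of 0.66 (SE 0.28, adjusted p = 0.242).

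The trifunctional protein consists of an alpha subunit, here encoded by the copies hadhaa and hadhab, and the beta subunit hadhb. The copy hadhaa was at 591, 933 and 899 in wild type and 1028, 924 and 1379 in the mutants, a log2 change of 0.47 (SE 0.22, adjusted p = 0.296). The copy hadhab was at 789, 671 and 410 in wild type and 446, 380 and 458 in the mutants, a log2 change of -0.49 (SE 0.24, adjusted p = 0.308). Both overlapped between genotypes with opposite signs, and the division of reads between the copies is uncertain. The beta subunit was at 1908 ± 275 and 2208 ± 212 (log2 change 0.22, adjusted p = 0.406). With library totals as the scaling hadhaa and hadhb were called. The carnitine transferases cpt1aa (882 ± 148 and 966 ± 40.2, log2 change 0.15), cpt1b (55.4 ± 41.6 and 33.5 ± 12.8, log2 change -0.55) and cpt2 (443 ± 49.1 and 394 ± 33.0, log2 change -0.17) had adjusted p between 0.525 and 0.625.

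Companion genes of the pathway that the name rule leaves out were listed with their roles, and 101 of 138 were in the table and 87 tested. Of these 1 fell and 1 rose, near the share of 2.61% called over all genes. The gene that fell was pparaa, a copy of the nuclear receptor that drives genes of fatty acid oxidation, at 1301, 1404 and 1360 in wild type and 595, 915 and 734 in the mutants. All mutants lay below all wild-type fish, a log2 change of -0.88 (SE 0.16, adjusted p = 0.0442). The gene that rose was acsbg2, an acyl-CoA synthetase of the bubblegum family, at 953, 924 and 1085 in wild type and 1518, 1536 and 1351 in the mutants, a log2 change of 0.57 (SE 0.10, adjusted p = 0.0442). Both calls ended when one of 5 libraries was left out, with adjusted p for pparaa and acsbg2 of 0.0551 and 0.0575 without wild-type replicate 1, 0.144 and 0.143 without wild-type replicate 2, 0.0985 and 0.0741 without wild-type replicate 3, 0.153 and 0.183 without mutant replicate 1, and 0.184 and 0.173 without mutant replicate 3. That of acsbg2 was also lost without mutant replicate 2 (0.0961). Over all alternatives adjusted p lay between 3.63e-04 and 0.184 for pparaa and between 6.01e-04 and 0.183 for acsbg2. DESeq2, which called 10.8% of all genes, called 6 companion genes lower and 6 higher, and edgeR called 1 and 1.

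By role, the 13 tested regulators had a median log2 change of -0.38, and the 12 tested genes of precursor supply and other chain building -0.16. The median over all genes was 0.013. With library totals as the scaling these medians were -0.034 and 0.19, against 0.36 over all genes. Among 8 genes of lipolysis and droplets none passed with limma or edgeR and 1 was under an unadjusted p of 0.05, which DESeq2 called. That gene, g0s2, whose mammalian protein inhibits triglyceride lipase, was at 193, 190 and 192 in wild type and 395, 264 and 294 in the mutants (adjusted p = 0.0895). The monoglyceride lipase mgll was at 498 ± 20.5 and 421 ± 16.2 (adjusted p = 0.240). Among 20 genes of uptake and transport none passed with limma, edgeR or DESeq2, and 4 were under an unadjusted p of 0.05. Those with the smallest p were adipor1a, needed for retinal DHA in mice (4883 ± 925 and 3514 ± 138, adjusted p = 0.137), and mfsd2ab, a copy of a lysophospholipid DHA transporter (1083 ± 119 and 784 ± 153, adjusted p = 0.176). Among 34 other oxidation genes none passed with limma or edgeR, 10 were under an unadjusted p of 0.05 and DESeq2 called 5. Over the 87 companion genes 26 were under an unadjusted p of 0.05, against 21.0% of all genes. Among the 34 other oxidation genes the smallest p belonged to abcd3b, a peroxisomal membrane transporter (405 ± 14.6 and 284 ± 29.5, adjusted p = 0.0838).

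Of the 61 members with an adjusted p in the authors' deposited table, 9 were under 0.05, next to 1182 of 11609 genes. They were the 6 called here and fabp7a, fads2 and elovl2, for which the authors' deposited table gives adjusted p of 0.00442, 0.0269 and 0.0335. DESeq2 on the recovered reads called the same 9 members.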

How the data were processed

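Retinal RNA was sequenced from 3 wild-type and 3 samd7 mutant fish. The submitters' processing notes name STAR 2.7.2b, HTSeq 0.9.1, Trim Galore 0.6.1, R 4.1.3, DESeq2 1.34.0 and danRer10, the genome build. For settings, strand handling and annotation, nothing is given in the sources used here. The signal values that the authors deposited are reads per gene divided by 1 size factor per library, and within a tolerance of 0.01 reads 100.0% of them were whole reads. The log2 fold changes and the adjusted p-value per gene were also deposited by the authors, per the file headers.

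Tests were made in R 4.3.3 with limma 3.58.1 (variance trend, robust moderation), applied to log2(value + 1) for genes that reached 10 in 3 or more libraries. It was fitted to the whole table. The alternatives were TMM scaling, library totals, no filter, a filter of 50, pseudocounts of 0.1 and 10, edgeR 4.0.16 and DESeq2 1.42.0 on recovered reads, a replicate block, a threshold of 0.01 and each library left out. The scripts were tested on simulated data. The members and lists were chosen with earlier results of these data known. Members named were those called, the 3 with the highest mean and the 3 with the smallest p in each role, and others were added to complete a family after their values were seen. Of companion genes those called, or else the 2 with the smallest p of a list, were named, and other genes are marked where chosen later. One companion gene under this rule is not reported here. The RefSeq table of assembly GRCz12tu holds 61 of the 68 names as symbols and 6 as synonyms. Positions and sequences were not used here. No library was a copy of another, since within a genotype every pair had a chi-square of at least 52.8 per degree of freedom.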

Additional observations from a re-analysis of the deposited data

How the results depend on the processing

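The count of calls depended on the test, the scaling and single libraries. Against 202 genes lower and 94 higher in limma, DESeq2 called 751 and 469, and an adjusted p of 0.01 left 19 and 4. With library totals as the scaling the median log2 change of all genes moved from 0.013 to 0.36 and 1987 genes were called higher, with 141 lower. The 6 called members kept their direction and their call there and with TMM. Leaving out each library in turn gave 11 to 236 genes lower and 4 to 130 higher. Of the members 4 were lower and 2 higher. Leaving out each library gave 0 to 3 lower and 0 to 2 higher, with 10 or 11 members under an unadjusted p of 0.05 where limma called 0. In these fits the log2 change lay between -2.83 and -2.28 for bbox1 and between -2.51 and -1.89 for lpcat4. It lay between 2.11 and 2.80 for fabp11a and between 0.49 and 0.61 for fabp3. With all 6 libraries 13 of 61 members were under it, near the 21.0% of all genes. Library totals gave 13 higher, DESeq2 5 higher, a replicate block 1 higher, and an adjusted p of 0.01 gave 0 lower and 0 higher. The cause of these differences was not tested.

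The labels do not say whether replicate numbers pair the fish. Deviations from the genotype means correlated by 0.19, -0.14 and 0.23 for numbers 1, 2 and 3. For unlike numbers they correlated by -0.34 to 0.17. Such values from 3 fish of each genotype can neither show nor exclude a pairing. With the replicate block 4 members were lower and 1 higher, fabp11a (adjusted p = 0.0665) and fabp3 (0.050) were no longer called, and fabp7a (0.0269) was.

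Members with no call changed sign in some settings. With library totals the log2 change was 0.048 for acsl1a, 0.25 for acsl3b, 0.047 for agpat6, 0.27 for agpat5 and 0.18 for acadsb. Without single libraries it lay between -0.24 and 0.044 for acsl3b, between -0.64 and 0.89 for fabp1a, between -0.22 and 0.10 for agpat5, between -0.43 and 0.49 for plin2 and between -0.36 and 0.95 for lpl. Depth limits dgat2, agpat9l and other members with few reads, and intervals from 3 fish are wide for the rest.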

Other observations

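The 4 gpatch genes that matched the name rule without a lipid role did not pass limma, with 1 under an unadjusted p of 0.05, and edgeR and DESeq2 also called none of them. That gene, gpatch4, was at 73.5, 126 and 131 in wild type and 171, 143 and 186 in the mutants (log2 change 0.63, limma adjusted p = 0.238). Among companion genes singled out after their values were seen, the mitochondrial citrate carrier slc25a1a, which exports the carbon for fatty acid synthesis, was at 362, 576 and 631 in wild type and 886, 891 and 1062 in the mutants (log2 change 0.89, limma adjusted p = 0.0843). The retinoid X receptor rxrga, a partner of nuclear receptors such as pparaa, was at 730, 740 and 572 in wild type and 404, 487 and 446 in the mutants (log2 change -0.60, limma adjusted p = 0.0773). Neither gene overlapped between genotypes, and neither passed the test.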
